A study of Mus musculus with 12 samples.

Results

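The 10 genes described here encode the enzymes that hydroxylate and cross-link collagen: P4ha1, P4ha2 and P4ha3, Plod1, Plod2 and Plod3, and Lox, Loxl1, Loxl2 and Loxl3. They were the rows of the count table that carry these mouse gene symbols, 10 of 49315 genes, and all 10 were found. P4ha3 was selected on its measured rise in knockout fat under vehicle, so the difference between knockout and control mice under vehicle chose the set and is given below as a description. The other 9 genes were taken by name, with earlier results of these data known.

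Collagen chains are modified in the endoplasmic reticulum before they fold. Prolyl 4-hydroxylases, tetramers of catalytic alpha subunits (P4ha1, P4ha2 or P4ha3) and the beta subunit P4hb, make the hydroxyproline that keeps the triple helix stable at body temperature. Lysyl hydroxylases (Plod1, Plod2 and Plod3) modify lysines that later carry sugars and cross-links, and Plod2 is the enzyme that acts on the short telopeptide ends. Outside the cell, lysyl oxidases (Lox and its relatives Loxl1 to Loxl3) oxidise lysines of collagen and elastin to aldehydes, which then react into cross-links. The hydroxylases need iron, oxoglutarate and vitamin C, and the oxidases need copper. In fat these enzymes are known from fibroblasts, preadipocytes and adipocytes, and several of them are induced by hypoxia.

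RNA of epididymal white adipose tissue (eWAT) was sequenced from 12 mice, 3 in each of 4 groups, with 1 library per mouse. KO mice lack the Mir181a2b2 locus in the whole body (Mir181a2b2-/-), and controls were Mir181a2b2 flox/flox mice (flox) that carry the loxP sites without Cre and keep the locus. All mice were on a high-fat diet (60% of energy as fat) for 12 weeks and received weekly intraperitoneal injections of vehicle or of methotrexate (MTX) at 1 mg/kg. The study used male littermates matched for age, and the ages of these animals are not given in the sources used here. Libraries are called below by group and replicate number, and values for the 3 mice of a group follow the order of these numbers (1, 3 and 4 in flox vehicle, 1, 2 and 3 in KO vehicle, 1, 2 and 4 in flox MTX, 2, 3 and 4 in KO MTX).

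Counted reads ranged from 19495310 to 23976469 per library (median 21824170). Levels are in CPM, read counts scaled for library size with TMM factors that adjust for composition, and a count of 0 allows up to 3 counts, or 0.118 to 0.188 CPM, which covers counting error only. A list of 12 adipocyte markers summed to between 10270 and 51444 CPM, with Fabp4, the fatty acid carrier of fat cells, as its most abundant gene. Libraries also differed in RNA of other tissues. In the flox vehicle group the 14 genes of an epididymis list together had 4567, 11805 and 1490 CPM. Flox MTX replicate 1 had 487 CPM of this list, and each of the 8 remaining libraries had 1.31 to 19.9 CPM. A list of 8 testis germ cell genes summed to between 186 and 524 CPM in the flox vehicle group and to at most 10.8 CPM elsewhere. Every comparison with flox vehicle mice contains this difference between libraries.

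The locus removed in KO mice makes the microRNAs miR-181a-5p and miR-181b-5p. Their mature sequences from RefSeq (GRCm38.p6) are shown because they define which transcripts could pair with them, with the seed (bases 2 to 8 from the 5′ end) in capitals.
miR-181a-5p (chr2:38852741-38852763, plus strand): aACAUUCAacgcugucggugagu
miR-181b-5p (chr2:38853845-38853868, plus strand): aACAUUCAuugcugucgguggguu
Both share the same seed, ACAUUCA, whose reverse complement in DNA letters is TGAATGT. Among the 10 genes, 1 (Lox, with 1 match in 3160 bases) held TGAATGT in the 3′ UTR of its principal coding transcript, and P4ha1, P4ha2, P4ha3, Plod1, Plod2, Plod3, Loxl1, Loxl2 and Loxl3 held none in 387 to 2715 bases. Of 15238 tested genes with an annotated 3′ UTR, 16.3% held the match, and of the 9571 whose 3′ UTR was as long as those of the 10 genes, 16.7% did. A match of letters is a description and not a measured binding site.

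Per kb of exon, the 10 genes spanned a wide range of levels. In flox vehicle mice the order ran from Plod3 (27.6 ± 9.16 CPM per kb, SD, n = 3) through Loxl1 (22.7 ± 8.28), Lox (17.6 ± 7.17) and Plod1 (14.6 ± 3.14) to P4ha1 (7.87 ± 2.14). Neighbours among the first 4 overlapped within their SD, whereas Plod1 and P4ha1 did not. Loxl2 (4.22 ± 1.28 CPM per kb), P4ha2 (3.51 ± 0.87), Plod2 (2.47 ± 0.67) and Loxl3 (2.17 ± 0.22) followed within overlapping SDs, and P4ha3 was not detected in these libraries. Loxl1 stood first in both KO groups, at 48.9 ± 11.3 CPM per kb under vehicle and 45.8 ± 5.84 under MTX, where Plod3 had 39.5 ± 2.43 and 43.7 ± 4.32. In each of the 4 groups the first 4 places went to Plod3, Loxl1, Lox and Plod1, the next to P4ha1 and then Loxl2, and the last to P4ha3. Among the members of each family described here, 1 or 2 genes therefore carried most of the transcript. They were P4ha1 among the prolyl hydroxylases, Plod3 and Plod1 among the lysyl hydroxylases, and Loxl1 and Lox among the oxidases. Loxl4 is not among the 10 genes and is left out here.

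**Figure D1:**
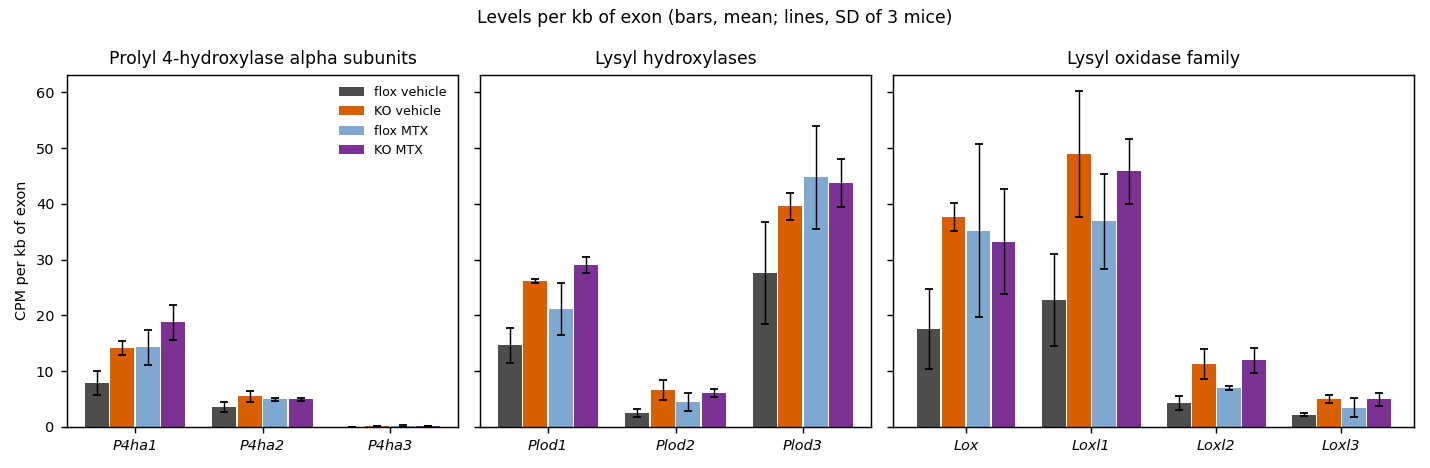
Mean level of each gene in CPM per kb of exon (vertical axis), by enzyme family, in the 4 groups, with lines for the SD of 3 mice. Plod3, Loxl1, Lox and Plod1 hold the first 4 places in every group, and the bars of P4ha3 are close to 0.

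P4ha1 and P4ha2 (chr10:59323296-59373304 and chr11:54100095-54131665 in GRCm38, both on the plus strand) encode the alpha subunits found in most tissues, and P4ha3 (chr7:100285520-100319699, plus strand) encodes an isoform of more restricted expression. In P4ha1, flox vehicle mice had 33.8, 23.0 and 40.4 CPM, KO vehicle mice 55.7, 54.6 and 64.0, flox MTX mice 45.2, 70.5 and 60.3, and KO MTX mice 80.6, 87.4 and 62.9. All 9 libraries outside the flox vehicle group were above the 3 within it, and the KO MTX group reached furthest. The levels of P4ha2 were 18.7, 18.8 and 28.2 CPM in flox vehicle, 40.2, 27.8 and 33.6 in KO vehicle, 29.3, 32.9 and 29.6 in flox MTX, and 32.7, 29.0 and 30.6 in KO MTX mice. The highest flox vehicle library lay just above the lowest KO vehicle library, and the 2 MTX groups covered nearly the same range. As a ratio of read counts within a library, P4ha1 over P4ha2 was 1.49 ± 0.29 in flox vehicle, 1.75 ± 0.32 in KO vehicle, 1.91 ± 0.32 in flox MTX and 2.51 ± 0.48 in KO MTX mice (SD, n = 3). The lowest KO MTX library (2.06) lay below the highest flox MTX library (2.14), so these neighbours overlapped.

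P4ha3 was near the limit of detection in all 4 groups. It had 0, 0 and 0 counts in the flox vehicle mice, 4, 7 and 13 counts in the KO vehicle mice (0.202, 0.296 and 0.609 CPM), 2, 29 and 0 counts in the flox MTX mice (0.0945, 1.32 and 0 CPM), and 13, 12 and 6 counts in the KO MTX mice (0.565, 0.520 and 0.262 CPM). The vehicle groups did not overlap, whereas flox MTX mice held both the highest library of all and a library at 0. Against the limit that 3 counts per flox vehicle library set (mean 0.129 CPM), the mean of the KO vehicle group was at least 2.86-fold higher, that of the flox MTX group at least 3.65-fold higher and that of the KO MTX group at least 3.49-fold higher. The flox MTX value rests on replicate 2, the library with 29 counts, where the others of that group had 2 and 0. The KO vehicle value selected this gene and is not tested. P4ha3 passed the filter on low counts through libraries outside the flox vehicle group. At these counts, counting error is a large part of each value.

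The 250 bases before the RefSeq start of the 3 prolyl hydroxylase genes (GRCm38.p6, 5′ to 3′ on the coding strand) are shown because these paralogs stood so far apart in level, with capitals for the core letters bound by hypoxia-inducible factors (ACGTG or GCGTG, on the other strand CACGT or CACGC).
P4ha1 (chr10:59323046-59323295): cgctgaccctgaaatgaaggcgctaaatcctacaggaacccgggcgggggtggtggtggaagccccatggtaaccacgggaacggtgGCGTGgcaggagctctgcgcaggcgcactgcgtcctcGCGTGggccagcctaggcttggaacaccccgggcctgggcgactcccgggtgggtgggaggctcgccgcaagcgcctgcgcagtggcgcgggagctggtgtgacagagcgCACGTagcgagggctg
P4ha2 (chr11:54100674-54100923): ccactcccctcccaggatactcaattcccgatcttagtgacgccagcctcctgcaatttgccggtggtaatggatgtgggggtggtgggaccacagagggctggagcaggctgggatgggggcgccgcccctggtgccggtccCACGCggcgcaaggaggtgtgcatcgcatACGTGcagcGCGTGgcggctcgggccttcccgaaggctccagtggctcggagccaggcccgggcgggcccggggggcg
P4ha3 (chr7:100285270-100285519): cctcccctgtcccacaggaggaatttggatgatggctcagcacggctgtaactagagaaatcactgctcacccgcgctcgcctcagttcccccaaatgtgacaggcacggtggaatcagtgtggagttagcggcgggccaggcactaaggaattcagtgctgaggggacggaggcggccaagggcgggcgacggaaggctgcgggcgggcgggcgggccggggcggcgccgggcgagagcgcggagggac
P4ha1 and P4ha2 each held 3 matches and P4ha3 held 0. In windows of the same length Plod1 held 1 and Plod3 held 4, and promoters of the other 5 genes are not given here. At least 1 match stood in 38.6% of 32851 promoters and in 51.4% of the 16432 promoters of genes tested, so the letters are common, and they say nothing about binding in these tissues.

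Plod1 (chr4:147909753-147936767, minus strand) encodes the lysyl hydroxylase of the helical part of collagen. Its levels were 82.9, 90.3 and 123 CPM in flox vehicle mice, 179, 175 and 177 in KO vehicle mice, 179, 130 and 120 in flox MTX mice, and 206, 187 and 196 in KO MTX mice. Each KO library stood above each flox library of the same treatment for this gene. Plod2 (chr9:92542223-92608428, plus strand), the telopeptide enzyme, had 12.8, 10.1 and 17.2 CPM in flox vehicle, 29.2, 30.2 and 46.7 in KO vehicle, 22.7, 32.6 and 15.4 in flox MTX, and 30.1, 36.7 and 30.7 in KO MTX mice. The flox MTX group overlapped with every other group. Plod3 (chr5:136987019-136996648, plus strand) encodes an enzyme that also adds the sugars to hydroxylysine. It had 114, 90.1 and 171 CPM in flox vehicle mice, 186, 166 and 184 in KO vehicle mice, 230, 154 and 222 in flox MTX mice, and 206, 175 and 211 in KO MTX mice. All 4 groups of Plod3 overlapped with at least 1 other group. The span of Plod3 overlaps with that of Znhit1 on the opposite strand, which had 11919 counts against 45585 for Plod3 over the 12 libraries. Whether their exons share bases was not examined. Because the strand setting is not stated, reads in any shared part cannot be assigned with certainty. Plod2 made up 5.55% ± 0.34 of the lysyl hydroxylase transcript per kb in flox vehicle, 9.02% ± 2.15 in KO vehicle, 6.48% ± 3.25 in flox MTX and 7.71% ± 1.37 in KO MTX mice (SD, n = 3). The spread in flox MTX mice came from replicate 2 at 10.2%, with the other libraries of that group at 5.16% and 4.10%.

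Lox encodes the founding lysyl oxidase, which cross-links fibrillar collagen and elastin. Its levels were 78.9, 52.4 and 120 CPM in flox vehicle mice, 166, 184 and 188 in KO vehicle mice, 245, 162 and 97.0 in flox MTX mice, and 178, 107 and 191 in KO MTX mice. The KO vehicle libraries were close to each other, and both MTX groups spread widely and overlapped. Loxl1 (chr9:58287738-58313186, minus strand), known for its part in elastic fibre upkeep, had 99.2, 45.3 and 79.9 CPM in flox vehicle, 151, 130 and 202 in KO vehicle, 141, 133 and 89.6 in flox MTX, and 160, 165 and 129 in KO MTX mice. Among the pairs of groups that differ in 1 factor, only the vehicle groups were apart for Loxl1. For Loxl2 (chr14:69609068-69695834, plus strand), which acts on collagen IV in basement membranes, flox vehicle mice had 20.1, 17.6 and 30.7 CPM, KO vehicle mice 50.9, 53.9 and 77.1, flox MTX mice 38.3, 35.3 and 38.8, and KO MTX mice 67.2, 74.2 and 51.3. The groups of this gene lay in steps, with flox vehicle lowest, flox MTX next, and the KO groups above both and overlapping with each other. Loxl3 (chr6:83034173-83052562, plus strand) had 10.7, 8.81 and 10.4 CPM in flox vehicle mice, 19.3, 23.97 and 25.3 in KO vehicle mice, 12.6, 24.5 and 9.57 in flox MTX mice, and 21.8, 28.5 and 17.96 in KO MTX mice. The flox MTX replicate 2 library stood within the range of the KO vehicle libraries, and the others of that group lay near the flox vehicle libraries. The span of Loxl3 overlaps with that of Htra2 on the opposite strand, which had 9141 counts against 4713 for Loxl3 over the 12 libraries. The counts of Loxl3 are therefore uncertain, to an extent that was not examined. Lox was also taken as a share of the summed transcript per kb of Lox, Loxl1, Loxl2 and Loxl3, with Loxl4 left out. This share was 37.3% ± 6.31 in flox vehicle, 37.0% ± 4.36 in KO vehicle, 41.5% ± 7.03 in flox MTX and 34.6% ± 9.59 in KO MTX mice (SD, n = 3), with overlapping ranges in all 4 groups.

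**Figure D2:**
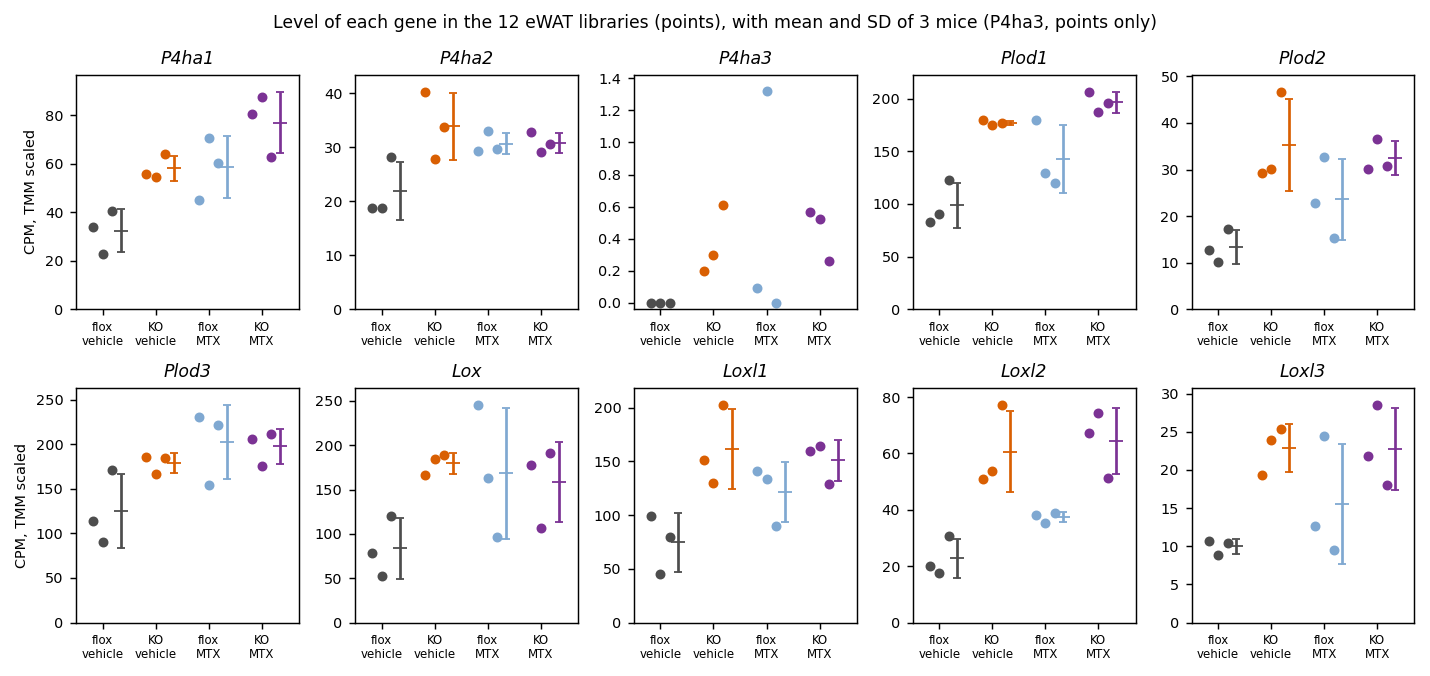
CPM of each gene (vertical axis, a scale of its own in every panel) in the 12 libraries as points, in order of replicate number, beside the mean and SD of 3 mice in each of the 4 groups. The flox vehicle group has the lowest mean for every gene, and flox MTX replicate 2, the middle point of its group, is far above the rest of its group for P4ha3 and Loxl3.

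In knockout mice under vehicle, enzymes of all 3 families stood higher than in flox mice under vehicle. The fitted log2 differences were 0.84 for P4ha1, 0.63 for P4ha2, 0.84 for Plod1, 1.41 for Plod2, 0.52 for Plod3, 1.10 for Lox, 1.11 for Loxl1, 1.41 for Loxl2 and 1.20 for Loxl3. P4ha3 is given by its bound above, since a fitted value against 0 counts depends on the prior count. A call here is a Benjamini-Hochberg adjusted p below 0.1 in edgeR's quasi-likelihood test with a fold change of at least 1.5. By that limit 8 of the 9 genes other than P4ha3 were called higher, beside 13.9% of the 18702 genes tested, and Plod3 was not. P4ha3 is left out of this and later counts of calls, since it was picked for this rise and passed the filter only through groups in which it was detected. Since this contrast chose the set, nothing is read from the count, and no p is given. In bulk tissue a larger share of matrix-making cells and more RNA per such cell cannot be told apart, here and in the comparisons below.

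Under MTX, knockout and flox mice share no library with the contrast above. Loxl2 had the largest difference there, with 0.78 ± 0.23 higher log2 level in KO mice (SE, adjusted p = 0.11, edgeR with Benjamini-Hochberg adjustment), and all 3 KO libraries above all 3 flox libraries. Plod1 was also apart, at 0.46 ± 0.18 (adjusted p = 0.16). P4ha1 (0.39 ± 0.22), Plod2 (0.46 ± 0.29), Loxl1 (0.31 ± 0.28) and Loxl3 (0.54 ± 0.31) were positive with overlapping groups, and their adjusted p lay between 0.291 and 0.511 in edgeR. P4ha2 (0.01 ± 0.18), Plod3 (-0.03 ± 0.23) and Lox (-0.08 ± 0.36) stood near 0, with adjusted p of 0.987, 0.946 and 0.908 in edgeR. P4ha3 had -0.12 ± 1.05 and is given without a p, since it passed the filter only through groups in which it was detected. By edgeR 0 of the 9 genes other than P4ha3 were called, beside 0% of all genes. DESeq2 called 1 higher, Loxl2, beside 7.99% of the genes it tested. At an unadjusted p below 0.05 there were 2 genes, Loxl2 and Plod1, both higher, beside 11.5% of all genes higher at that limit. The same 2 genes did not overlap between groups, beside 14.7% of all genes. Single libraries moved these counts. Without flox MTX replicate 2, edgeR called 3 of the 9 genes other than P4ha3 higher (Plod2, Loxl2 and Loxl3), but 10.6% of all genes were then called higher too. Without that library P4ha3 has 2 and 0 counts in flox MTX mice and enters the test only through the KO groups, so its call there is not counted. Without flox vehicle replicate 3, which enters the shared spread, 1 was called (Loxl2), beside 2.84% of all genes.

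In flox mice, MTX went with higher levels of most of the enzymes. P4ha3 shares the flox vehicle libraries with the contrast that selected it and is not tested here. The other 9 genes are compared with the same flox vehicle libraries, so their values here are not independent of the contrast that chose the set. Of the other 9 genes, 5 were called higher in MTX than in vehicle mice by edgeR at the limit above: P4ha1 (log2 difference 0.86 ± 0.22, adjusted p = 0.0238), Plod2 (0.82 ± 0.29, 0.069), Plod3 (0.69 ± 0.23, 0.0558), Lox (1.00 ± 0.36, 0.0749) and Loxl2 (0.72 ± 0.23, 0.0494). This compares with 8.09% of all genes called higher. P4ha2 (0.48 ± 0.18, adjusted p = 0.0853 in edgeR) and Plod1 (0.53 ± 0.18, 0.0633) passed the limit on p but not that on fold. Loxl1 (0.70 ± 0.28, adjusted p = 0.106 in edgeR) and Loxl3 (0.64 ± 0.31, 0.164) did not pass. Flox MTX and flox vehicle libraries did not overlap in 3 of the 10 genes, P4ha1, P4ha2 and Loxl2, beside 10.9% of all genes, so for Plod2, Plod3 and Lox the call goes with overlapping libraries. All 12 macrophage markers described below were also called higher in this comparison, and their part in these values was not tested. DESeq2 called the same 5 enzymes as edgeR higher and also Loxl1. The share of all genes it called here is not given, so nothing is read from that count. The calls depended on single libraries and on the setting. Of the 9 genes, 2 were called without flox vehicle replicate 1 (P4ha1 and Loxl1, the latter not called in the main fit). Without flox vehicle replicate 3, 1 was called (P4ha1), and without flox MTX replicate 1, 2 were (P4ha1 and Loxl2). When the 6 libraries were fitted alone, 0 were called. The shares of all genes called in these settings are not given, so the shifts are not read as particular to the enzymes.

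In KO mice, the same treatment went with differences near 0. Of the 9 genes tested, 0 were called by edgeR and 0 by DESeq2, and 0 were at an unadjusted p below 0.05, beside 0% called higher and 7.97% at that unadjusted limit among all genes. P4ha1 had the largest difference, 0.41 ± 0.22 (adjusted p = 0.69, edgeR with Benjamini-Hochberg adjustment), and the other 8 lay between -0.18 (Lox) and 0.15 (Plod1). For Plod1 the KO MTX libraries were all above the KO vehicle libraries, 1 of the 10 genes to show this, beside 11.1% of all genes. The KO vehicle libraries also stand in the vehicle contrast above.

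The test of whether the MTX difference itself differed between genotypes (the interaction) gave negative values for the 9 genes, from -0.38 (Plod1) to -1.18 (Lox), that is, a smaller difference in KO than in flox mice. None of the 9 was called, with adjusted p between 0.288 and 0.511 (edgeR with Benjamini-Hochberg adjustment), and DESeq2 called 0, beside 0.989% of all genes called in either direction by edgeR. P4ha2 (-0.62 ± 0.26), Plod2 (-0.95 ± 0.41) and Lox (-1.18 ± 0.51) were below an unadjusted p of 0.05, 3 of 9, beside 5.45% of all genes lower at that limit. This test contains the 6 vehicle libraries that chose the set. A difference in response between genotypes is thus not shown for any of these genes. Without flox vehicle replicate 4, 1 gene (P4ha2) was called. The share of all genes called in that setting is not given, so nothing is read from it.

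**Figure D3:**
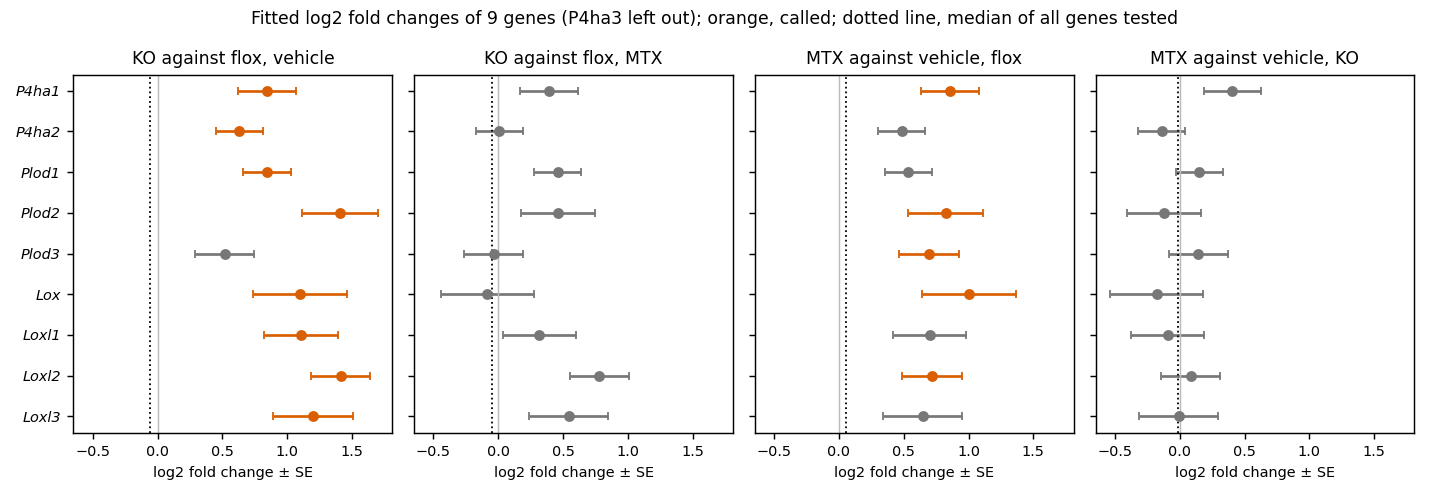
Log2 fold change with its SE (horizontal axis) for 9 genes in the 4 comparisons, with orange for called genes and a dotted line for the median of all genes tested. All 9 points are to the right of 0 in the vehicle contrast, which chose the set, and in MTX against vehicle in flox mice, while MTX against vehicle in KO mice lies around 0.

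Genes that work with these enzymes were counted from lists put together by name, with earlier results of these data known. The counts and the shares beside them are therefore a description, here and for the lists below. Of 25 partners in collagen folding and processing, 6 were called higher and 1 lower in KO than in flox mice under vehicle, 0 in either direction under MTX, 5 higher and 0 lower with MTX in flox mice, and 0 with MTX in KO mice (edgeR). Over all genes edgeR called 13.9% higher under vehicle and 8.09% higher with MTX in flox mice, and these shares also apply to the lists below. Under MTX, DESeq2 called 4 of the partners higher in KO mice, beside 7.99% of the genes it tested. At an unadjusted p below 0.05 in edgeR there were 5, all higher, beside 11.5% of all genes. With MTX in KO mice both counts were 1, beside 7.97% of all genes at that p in either direction. The median log2 differences of the 25 partners were 0.34, 0.11, 0.39 and 0.01 in the order of the 4 comparisons above. P4hb, the beta subunit shared by all 3 prolyl hydroxylases, had 525 ± 49.1 CPM in flox vehicle and 638 ± 34.01 in KO MTX mice, the lowest and highest group means, and was called in no comparison (adjusted p of at least 0.524 in edgeR). Serpinh1, the collagen chaperone HSP47, had 618 ± 295 CPM in flox vehicle, 1065 ± 164 in KO vehicle, 1104 ± 477 in flox MTX and 922 ± 164 in KO MTX mice, and was called in none. Pcolce, which enhances removal of the C-propeptide, rose from 43.9 ± 15.01 CPM in flox vehicle to 97.2 ± 34.7 in flox MTX mice (log2 difference 1.15 ± 0.32, adjusted p = 0.0307 in edgeR) and had 186 ± 44.8 and 184 ± 41.5 in the KO groups. Adamts2, which removes the N-propeptide, rose in flox mice with MTX by 0.79 ± 0.20 (adjusted p = 0.0213 in edgeR). Bmp1, the C-proteinase that also activates Lox, had 75.3 ± 9.29 CPM in flox vehicle and 101 ± 21.6 in flox MTX mice (adjusted p = 0.11 in edgeR). Colgalt1 (a collagen galactosyltransferase), Ppib (a prolyl isomerase) and Mia3 (needed for collagen export) did not pass in that comparison, with log2 differences of 0.08, -0.10 and -0.01.

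Transcripts of the matrix proteins that these enzymes act on, or that lie beside them, were counted in the same way. Of 19 collagen, elastic fibre and matrix genes, 12 were called higher in KO than in flox mice under vehicle and 0 lower, 0 under MTX, 8 higher with MTX in flox mice and 0 in KO mice (edgeR), with median log2 differences of 1.06, 0.23, 0.75 and 0.08. Between KO and flox mice under MTX, DESeq2 called 2 higher, beside 7.99% of the genes it tested. An unadjusted p below 0.05 in edgeR was reached by 3 higher, beside 11.5% of all genes, and by 1 lower. The share of all genes lower at that p is not given. With MTX in KO mice both tools gave 0 on these counts. Col3a1 had 933 ± 380 CPM in flox vehicle, 3212 ± 1013 in KO vehicle, 1725 ± 693 in flox MTX and 3229 ± 306 in KO MTX mice. Its difference with MTX in flox mice was 0.89 ± 0.37 (adjusted p = 0.119 in edgeR). Col1a2 rose in that comparison by 1.07 ± 0.35 (adjusted p = 0.0554 in edgeR), and Col4a1, a basement membrane collagen, had 0.46 ± 0.30 (0.306). The summed CPM of the 10 enzymes, as a percentage of the summed CPM of the 19 substrates, was 6.70% ± 1.26 in flox vehicle, 6.39% ± 0.49 in KO vehicle, 6.75% ± 0.86 in flox MTX and 6.24% ± 0.04 in KO MTX mice (SD, n = 3). These means differed by less than the SD of the flox groups, while the summed CPM of the enzymes ranged from 356 to 999 across libraries.

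No gene for the supply of cofactors was called higher by edgeR in these comparisons. Of 7 copper and vitamin C transport genes, 0 were called higher and 2 lower in KO than in flox mice under vehicle, 0 in either direction under MTX, and 0 higher and 2 lower with MTX in flox mice (edgeR), and 0 with MTX in KO mice. Over all genes 17.8% were called lower in the first of these comparisons and 16.1% with MTX in flox mice. Between KO and flox mice under MTX, 1 had an unadjusted p below 0.05 in edgeR, which DESeq2 called higher, and with MTX in KO mice DESeq2 called 0 and 2 were below that p, in opposite directions. Slc31a2, a copper transporter, fell by 1.15 ± 0.31 on the log2 scale with MTX in flox mice (adjusted p = 0.0291 in edgeR), from 64.6 ± 36.1 to 29.1 ± 3.91 CPM. Slc31a1, the main copper importer, had 101 ± 35.8 CPM in flox vehicle and 65.9 ± 22.7 in flox MTX mice (adjusted p = 0.147), and Atox1, a copper chaperone, 89.0 ± 19.96 and 99.2 ± 33.9 (0.662, both edgeR). Of 12 other genes known to be induced by hypoxia, 2 were called higher and 2 lower in KO than in flox mice under vehicle, 0 under MTX, 1 higher and 0 lower with MTX in flox mice, and 0 with MTX in KO mice. Under MTX, 2 of them were higher and 3 lower in KO mice both by DESeq2 and at an unadjusted p below 0.05 in edgeR. Over all genes tested, 7.99% were called higher by DESeq2 and 11.5% were higher at that p in edgeR. The shares of all genes lower at these limits are not given, so nothing is read from the 3 lower genes. With MTX in KO mice DESeq2 called 0 of the hypoxia genes and 1 was below that p, beside 7.97% of all genes in either direction. The medians of this list were 0.04, -0.19, 0.32 and -0.06 on the log2 scale in the order above. Ldha (lactate dehydrogenase) had 767 ± 256 CPM in flox vehicle and 1276 ± 457 in flox MTX mice, Bnip3 (a mitophagy receptor) 343 ± 112 and 433 ± 137, and Pgk1 (a glycolytic kinase) 136 ± 25.2 and 200 ± 47.6, and edgeR called none of them.

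Cell type markers also differed between the groups, and not every list followed the enzymes. The marker lists were also put together with earlier results of these data known. The 12 macrophage markers were all detected in every library and summed to between 536 and 1107 CPM in flox vehicle, 4174 and 6884 in KO vehicle, 975 and 5521 in flox MTX, and 5805 and 9344 in KO MTX mice. Within flox MTX mice, replicate 2 had the highest sum (5521 CPM) and also the highest P4ha1, P4ha2, P4ha3, Plod2 and Loxl3, whereas Plod1, Plod3, Lox and Loxl1 were highest in replicate 1. Of 12 fibroblast markers, 10 were called higher and 1 lower in KO than in flox mice under vehicle (edgeR), with a median log2 difference of 1.17. Over all genes 13.9% were called higher and 17.8% lower there. The 12 fibroblast markers summed to between 3573 and 13721 CPM in flox vehicle, 6511 and 8775 in KO vehicle, 7606 and 9118 in flox MTX, and 5606 and 7220 in KO MTX mice. The most abundant gene of the list was Gsn, an actin-severing protein, with 6707 ± 5052 CPM in flox vehicle and 4982 ± 1240 in KO vehicle mice. Of the 12 genes, 6 were called higher with MTX in flox mice, beside 8.09% of all genes. Among them was Dcn, the proteoglycan decorin, by 1.04 ± 0.32 on the log2 scale (adjusted p = 0.0444 in edgeR). Markers of mesothelium, the lining of the fat pad (10 genes), summed to between 126 and 217 CPM in flox vehicle, 177 and 259 in KO vehicle, 284 and 570 in flox MTX, and 159 and 324 in KO MTX mice. Endothelial markers (10 genes) ranged from 420 to 612 CPM in flox vehicle, 897 to 1344 in KO vehicle, 409 to 884 in flox MTX and 591 to 1066 in KO MTX mice. Smooth muscle markers (8 genes) ranged from 560 to 839, 410 to 683, 687 to 754 and 271 to 544 CPM in the same order. Sums of adipocyte markers were between 18577 and 46693, 19168 and 32041, 29135 and 51444, and 10270 and 25442 CPM. The 10 enzymes were lowest in flox vehicle replicate 3 (356 CPM), the library with the most epididymis RNA. The part of these cell types and of the epididymis RNA in the differences of the enzymes was not tested.

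**Figure D4:**
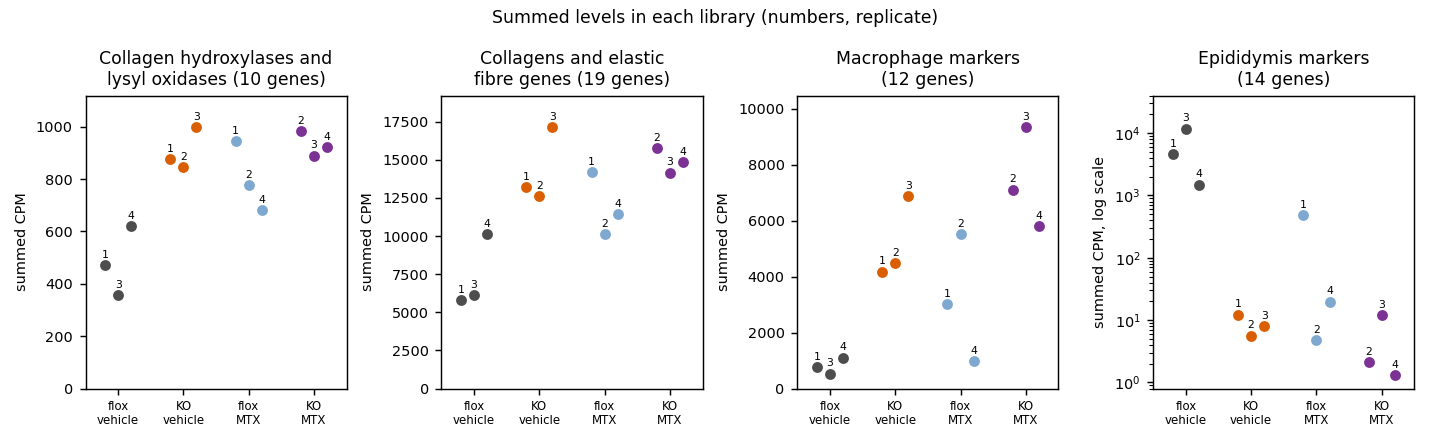
Summed CPM (vertical axis, on a log scale for the epididymis list) of the 10 enzymes, of 19 collagen, elastic fibre and matrix genes, of 12 macrophage markers and of 14 epididymis markers in each of the 12 libraries, labelled by replicate number. The flox vehicle libraries have the lowest sums of the enzymes (356 to 621 CPM) and the highest of the epididymis markers (1490 to 11805 CPM).

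The genes most like P4ha3 and Lox over the 12 libraries were sought by the root mean square difference of log2 CPM, each gene centred on its own mean. For P4ha3, the nearest of the 18702 genes tested included Sema4d, Lst1, Hcst and Dok3, at 0.44 to 0.47, against an SD of 1.33 for P4ha3 itself. These 4 are known from cells of the immune system. The 12 libraries include the vehicle groups that selected P4ha3, and at 0 to 29 counts its profile depends on the prior count. Nothing about its cell of origin is read from these neighbours. The nearest other enzyme, Loxl3, took place 732 (0.80). For Lox the nearest 5 were Atg101, Gm28187, Psmb10, Tgm2 and Insyn1, at 0.22 to 0.26, against an SD of 0.62 for Lox. Tgm2, the tissue transglutaminase, also cross-links matrix proteins. The nearest other enzyme to Lox was Plod1, at place 73 (0.36), followed by Loxl1 at 131 (0.39) and Plod3 at 184 (0.40). All these values come from the same 12 libraries and share their composition, so they are a description.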

How the data were processed

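RNA of eWAT from 12 mice was sequenced, 1 library per mouse. Per the labels and methods, the authors trimmed the reads with Trimmomatic 0.36, aligned them to mm10 with STAR 2.5.2b and assigned them to Ensembl genes with featureCounts of Subread 1.5.2. The methods describe ribosomal depletion and the labels polyA RNA, and the strand setting is not stated. The deposited values are read counts without normalization. Of 49315 genes, 48970 have a symbol, and GRCm38 positions are from GENCODE M21.

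The tests used edgeR 4.0.16 in R 4.3.3: filterByExpr by group (18702 genes, all 10 enzymes among them), TMM factors, 1 coefficient per group over 12 libraries, the quasi-likelihood F-test and Benjamini-Hochberg adjustment over all genes tested, with a common dispersion of 0.100. Levels per kb use the union of exons. The SE is the log2 difference divided by the root of F. Calls needed an adjusted p below 0.1 and a fold of 1.5. Other settings tried were DESeq2 1.42.0, scaling by RLE factors or by library size alone, no filter, at least 10 counts in every library, a replicate block, 6 libraries alone, other limits and each library left out. The procedure was run on simulated data for the comparison of KO and flox mice under MTX only, and the outcome is not given here. It is not a check of the other comparisons or of changes at low counts.

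The 10 enzymes and all lists (processing partners, substrates, cofactor supply, hypoxia, and markers of fibroblasts, smooth muscle, macrophages, adipocytes, endothelium, mesothelium, epididymis and testis) were chosen with earlier results of these data known. Named genes are the 10 enzymes, the 8 most abundant partners, and up to 3 most abundant genes of other lists. A gene near P4ha3 in pattern is not reported here. P4ha3 is given without a p in every comparison and is in no count of calls. Within groups, no pair of libraries was a duplicate. Replicate numbers were not taken as pairs, since residuals of same-numbered libraries in different groups correlated with a median r of 0.035 (-0.27 to 0.25, 12 pairs), beside 0.011 over the remaining 42 pairs.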

Additional observations from a re-analysis of the deposited data

How the results depend on the processing

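Counts of calls are over the 9 enzymes other than P4ha3. The count called higher in KO than in flox mice under vehicle was 8, and 0 with a log2 fold of at least 1.5. It ranged from 6 to 9 with each library left out (6 if flox vehicle replicate 1 or 3 is the one left out). Under MTX the count was 0 by edgeR, 1 by DESeq2, 1 with the filter of 10 counts per library and 0 to 3 with each library left out (3 without flox MTX replicate 2). With MTX in flox mice it was 5, and DESeq2 and the fit with no filter each called Loxl1 as well. The count was 1 when only library size scaled the counts, 3 with the filter of 10 counts per library and 2 with the replicate block. It was 0 with the 6 libraries alone, 0 with a log2 fold of at least 1.5 and 2 with an adjusted p below 0.05. With each library left out it was 1 to 7 (1 if that is flox vehicle replicate 3, 7 if it is flox vehicle replicate 4 or flox MTX replicate 4). The cause of these shifts was not tested. Shares of all genes called in these settings are not given here, so the shifts are not read as particular to the enzymes. For the interaction it was 0, and 0 to 1 with each library left out. With MTX in KO mice it was 0 in all settings run. Replicate numbers gave no pairing, and under the replicate block 9 enzymes were called in the vehicle contrast.

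Some values near 0, of which the main setting called none, changed sign. Between KO and flox mice under MTX, P4ha2 (0.01) was -0.0018 by DESeq2, -0.0053 with RLE factors, -0.0095 with the filter of 10 counts per library, -0.019 with 6 libraries alone and -0.038 to 0.063 with each library left out. Plod3 (-0.03) was 0.16 with library size only, 0.077 with the block and -0.19 to 0.093 with libraries left out, and Lox (-0.08) was 0.067, 0.083 and -0.35 to 0.31. P4ha3 ranged from -0.65 to 2.97 with libraries left out, the latter without flox MTX replicate 2, where its remaining flox MTX libraries have 2 and 0 counts. With MTX in KO mice, leaving libraries out gave -0.25 to 0.13 for Plod2, -0.33 to 0.040 for Lox, -0.23 to 0.11 for Loxl1, -0.035 to 0.30 for Loxl2 and -0.20 to 0.14 for Loxl3. The block gave 0.025 for Loxl1 and 0.051 for Loxl3, which was 0.0056 by DESeq2 and 1.2e-05 under RLE scaling. Scaling by library size alone moved the median of all genes from -0.05 to 0.12 between KO and flox mice under MTX and from 0.05 to -0.15 with MTX in flox mice. Between 3 and 3 libraries an exact permutation test cannot go below 0.1, so the adjusted p of the fit rests on the spread shared across genes.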
